A study of Homo sapiens with 34 samples.

Results

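Small noncoding RNAs that carry no poly(A) tail were followed through poly(A)-selected libraries of 4 human prostate cell lines. The set was taken by name and read number: gene symbols starting with SNORA, SNORD or SCARNA, and the genes RPPH1, RMRP, RN7SK and TERC, kept where at least 34 reads fell on the gene over all 34 libraries. RN7SK was not analysed here. Of 398 rows with such names in a table of 26336 genes, 45 reached the limit: 28 of 107 SNORA genes, 4 of 264 SNORD genes, 10 of 24 SCARNA genes, RPPH1, RMRP and TERC. A further 129 rows held at least 1 read but stayed under the limit, and 224 held 0 reads. SNORA31 (34 reads), SNORA38B (35 reads), SNORA6 (35 reads) and SNORA84 (36 reads) lay just inside the limit, and SNORA22 (30 reads), SNORA47 (26 reads), SNORA74A (24 reads) and SNORA14B (24 reads) just outside.

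By their labels, the RWPE line is prostate epithelium that forms no tumours, LNCaP is a lymph node metastasis line that the series' design calls an early adenocarcinoma model, and both VCaP and MDAPCa2a originate in metastases to bone. Each is 1 established line and stands for itself only. Cells grew on tissue culture plastic or on plates with a mineral layer of amorphous calcium phosphate (ACP), and RNA was purified on a column kit and sequenced after poly(A) selection. RWPE was sampled on plastic in control medium (2 libraries), on ACP in control medium (2) and on ACP with androgen (3), and its control medium was serum-free keratinocyte medium with EGF and bovine pituitary extract. LNCaP was sampled on plastic in control medium and in charcoal-stripped serum, from which steroid hormones have been removed, and on ACP in control medium, in stripped serum and with androgen (2 libraries each). VCaP had the same 5 groups with 2 libraries each, except for 1 library on plastic in stripped serum. MDAPCa2a was sampled on plastic in control medium and in stripped serum, and on ACP in stripped serum and with androgen (2 libraries each), and its plastic, unlike its ACP plates, had a protein coating. Androgen was labelled 100 mM, as DHT in the sample titles and as testosterone in the treatment text. The treatment text gives androgen in medium with stripped serum, so that the medium of the RWPE androgen group, whose control medium has no serum, is not settled. The groups on plastic in control medium were labelled as continuous culture and all others as day 4, while the treatment text describes a passage and the same days of culture for plastic in control medium too, and the labels do not settle which holds. Nothing in the labels says that replicates were separate cultures, so p-values measure only the spread between these libraries, which may be technical.

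Box H/ACA RNAs, whose human gene symbols start with SNORA, guide the conversion of uridine to pseudouridine in ribosomal RNA, and box C/D RNAs (SNORD) guide 2'-O-methylation. Most are cut out of introns of host transcripts, so their 3' ends are made by trimming and not by polyadenylation. SCARNAs do the same work on spliceosomal RNAs in Cajal bodies. RPPH1 is the RNA of RNase P, which cuts the 5' leaders from transfer RNA precursors, and RMRP is the RNA of the related RNase MRP, which takes part in ribosomal RNA processing; both are transcribed by RNA polymerase III. TERC is the template RNA of telomerase and ends in a box H/ACA domain. Trimmed or decaying forms of such RNAs can receive short oligo(A) tails, so reads on them in a poly(A) library count the molecules that were captured.

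The RNAs that held most reads, and the features by which the 2 guide classes are recognised, are shown here as DNA letters, 5' to 3'. Sequences and positions come from GRCh38 and GENCODE v29, while hg19 is the build named in the submitters' processing notes. RPPH1 lies at chr14:20343075-20343407 on the minus strand and RMRP at chr9:35657751-35658018 on the minus strand; of RPPH1 the first 300 of 333 bases are printed.
RPPH1: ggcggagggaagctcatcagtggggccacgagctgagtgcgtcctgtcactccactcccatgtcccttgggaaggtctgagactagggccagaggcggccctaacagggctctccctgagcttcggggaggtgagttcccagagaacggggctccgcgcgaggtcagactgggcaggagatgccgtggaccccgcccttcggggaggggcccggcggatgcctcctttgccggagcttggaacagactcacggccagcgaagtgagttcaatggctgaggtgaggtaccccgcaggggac
RMRP: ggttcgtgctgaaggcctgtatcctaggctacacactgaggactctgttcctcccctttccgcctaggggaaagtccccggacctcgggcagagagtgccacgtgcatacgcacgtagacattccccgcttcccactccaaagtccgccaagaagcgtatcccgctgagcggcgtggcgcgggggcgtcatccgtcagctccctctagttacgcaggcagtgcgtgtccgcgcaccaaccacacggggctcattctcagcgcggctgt
SNORA73B (chr1:28508559-28508762, plus strand) and SNORA63 (chr3:186787300-186787431, plus strand) are the box H/ACA RNAs with most reads, and the capitals mark a match to the H box pattern ANANNA in the middle of the RNA and the ACA close to its 3' end.
SNORA73B: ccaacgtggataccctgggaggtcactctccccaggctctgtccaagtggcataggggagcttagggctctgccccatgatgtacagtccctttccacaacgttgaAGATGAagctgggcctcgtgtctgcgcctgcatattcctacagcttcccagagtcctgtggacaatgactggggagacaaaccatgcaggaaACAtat
SNORA63: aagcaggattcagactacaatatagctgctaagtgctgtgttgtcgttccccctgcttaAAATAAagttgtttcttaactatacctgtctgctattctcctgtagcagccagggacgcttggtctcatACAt
SNORD17 (chr20:17962710-17962946, minus strand) is the box C/D RNA with most reads. SNORD104 (chr17:64146083-64146152, plus strand) is a box C/D RNA of 70 bases with 8 reads in all 34 libraries, shown to contrast the lengths, and in these RNAs the capitals mark TGATGA of the C box and CTGA of the D box.
SNORD17: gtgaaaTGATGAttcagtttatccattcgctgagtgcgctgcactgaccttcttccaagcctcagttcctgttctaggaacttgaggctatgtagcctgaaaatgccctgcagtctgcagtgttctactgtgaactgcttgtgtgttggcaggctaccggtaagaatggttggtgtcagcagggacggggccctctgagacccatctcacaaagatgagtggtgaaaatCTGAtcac
SNORD104: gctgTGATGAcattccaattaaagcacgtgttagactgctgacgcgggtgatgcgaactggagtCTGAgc

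ACA stood in the last 8 bases of 26 of the 27 SNORA members with a sequence (96.3%), against 127 of 142 SNORA genes in GENCODE (89.4%). ANANNA, searched on the RNA strand between 35% and 65% of the length, was found in 25 of 27 (92.6%) and in 131 of 142 (92.3%). The share with these letters was thus close to that of the whole class. ANANNA was also found in 148 of 275 SNORD genes (53.8%), though in 0 of the 4 SNORD members, so a match alone does not mark the class. TGATGA stood in the first 25 bases of 2 of the 4 SNORD members, against 192 of 275 SNORD genes (69.8%), and CTGA in the last 25 bases of 3 of 4, against 259 of 275 (94.2%).

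Short guide RNAs were nearly absent from the libraries. All 44 members with a GENCODE length were at least 120 bases long (122 to 541 bases, median 142), and SNORA76C had no entry. Of the 236 matching genes under 120 bases, which were all SNORD genes, 0 were members, 59 held at least 1 read and together they held 182 reads. Many of the 236 were numbered copies of SNORD113, SNORD114, SNORD115 and SNORD116, most with 0 reads. Whether the unread genes are expressed in these lines was not tested. Of the 9 SNORD genes of at least 120 bases, 4 were members, among them SNORD17 (237 bases), SNORD10 (142) and SNORD97 (142). Among SNORA genes, of which all with a length reached 120 bases, members and non-members had similar lengths (medians 134 and 133 bases). The part of column retention and of fragment size selection in this was not tested.

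**Figure D1:**
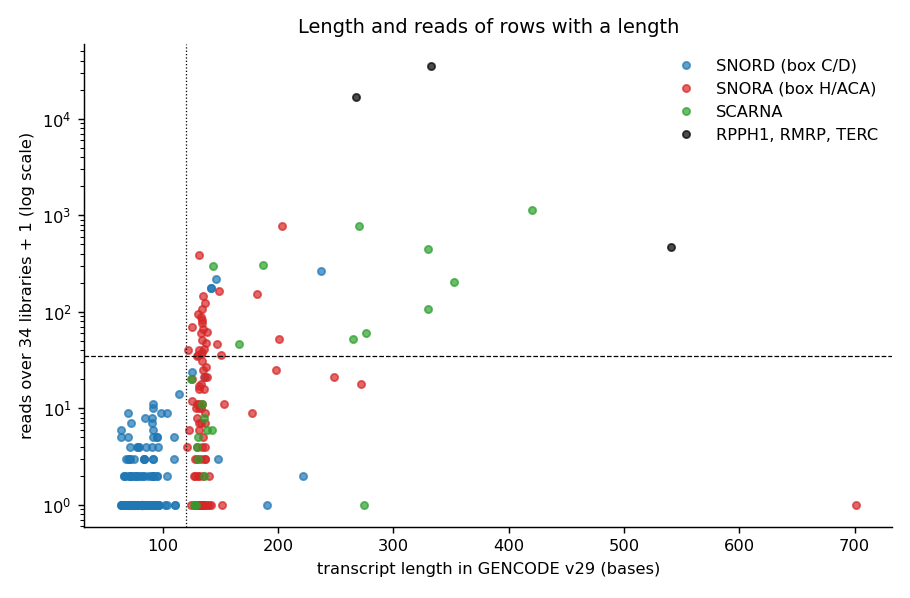
Transcript length in GENCODE v29 (bases, x axis) against reads summed over the 34 libraries plus 1 (log y axis), 1 point for each gene with a matching name and a length, coloured by class. The dashed line marks the limit of 34 reads and the dotted line 120 bases; 0 points lie above the first and to the left of the second.

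The members held 60042 reads over all 34 libraries. RPPH1 took 35404 of them (59.0%) and RMRP 16923 (28.2%), so that these 2 RNAs made up 87.2% of the total. The SCARNA members followed with 3420 reads, led by SCARNA2 (1134) and SCARNA12 (775), and the SNORA members with 2991, led by SNORA73B (775) and SNORA63 (386). The 4 SNORD members held 835 reads and TERC held 469. The median member had 88 reads over all libraries, and 5 members (RPPH1, RMRP, SCARNA2, SCARNA12 and TERC) had a read in every library. Total counts ran from 15440141 to 44779246 per library, so that most members rest on a few reads per library and all values carry counting error.

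Per length, mean CPM (a read count scaled to a common library size, on library sizes scaled by TMM, the trimmed mean of M values) per kilobase were 136 for RPPH1 and 80.8 for RMRP. Next came SNORA73B (5.15), which acts in ribosomal RNA cleavage, SNORA63 (3.93), SCARNA12 (3.54), SCARNA2 (3.38), SCARNA17 (2.26) and SCARNA16 (2.09). TERC stood at 1.04 on the same scale. Among the other SNORA members with high mean CPM were SNORA57 (0.215 CPM), SNORA48 (0.199 CPM), SNORA23 (0.195 CPM) and SNORA71A (0.151 CPM), and the SNORD members ran from 0.236 CPM (SNORD97) to 0.334 CPM (SNORD17). The spread between libraries below exceeds most steps in this order.

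The members' summed level ranged from 2.04 to 302 CPM between libraries and differed widely between replicates of 1 group. In RWPE the sum was 2.04 and 2.97 CPM (of the total count) on plastic in control medium, 212 and 212 on ACP in control medium, and 302, 12.8 and 10.5 on ACP with androgen. In LNCaP it was 3.93 and 3.86 on plastic in control medium, 17.6 and 37.0 on plastic in stripped serum, 187 and 16.1 on ACP in control medium, 45.6 and 11.5 on ACP in stripped serum, and 158 and 76.5 on ACP with androgen. Replicates thus lay close together in the plastic control groups of these 2 lines, and far apart in LNCaP on ACP. In VCaP the sum was 7.81 and 6.32 on plastic in control medium, 96.3 in the single library on plastic in stripped serum, 53.3 and 160.3 on ACP in control medium, 29.4 and 39.7 on ACP in stripped serum, and 191 and 136 on ACP with androgen. In MDAPCa2a it was 59.2 and 2.37 on plastic in control medium, 31.0 and 36.3 on plastic in stripped serum, 229.7 and 125 on ACP in stripped serum, and 20.5 and 26.7 on ACP with androgen. The 2 lowest libraries were those of RWPE on plastic in control medium, with 2.04 CPM, and of MDAPCa2a on the same surface and medium, with 2.37 CPM.

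**Figure D2:**
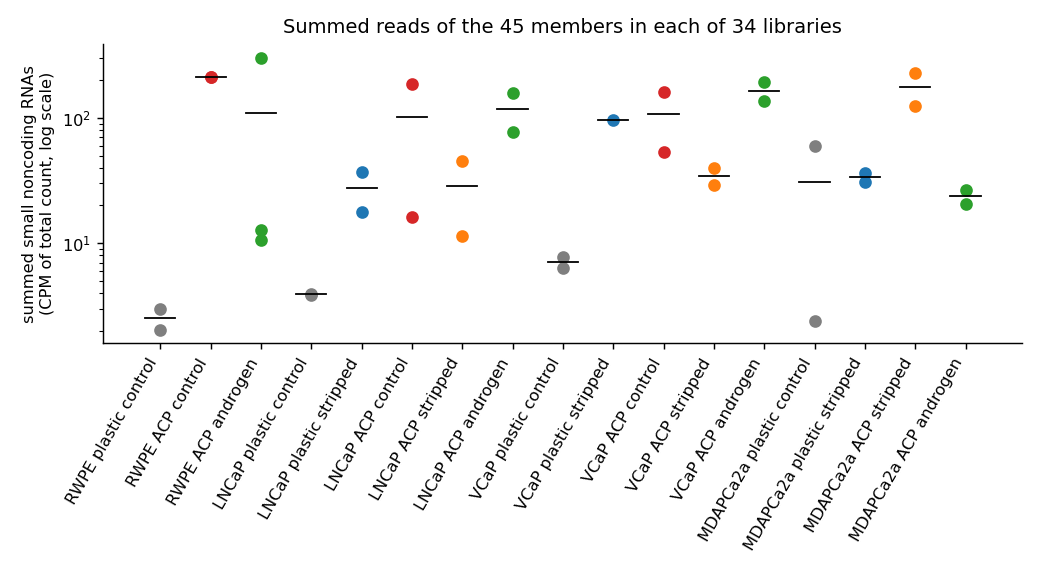
Summed CPM of the 45 RNAs (of the total count, log y axis) in each of the 34 libraries, by group on the x axis; points are libraries, coloured by surface and medium, and black bars are group means. The plastic control libraries lie between 2.04 and 7.81 CPM apart from 1 MDAPCa2a library at 59.2 CPM, and 1 RWPE androgen library lies at 302 CPM while the other 2 lie at 12.8 and 10.5 CPM.

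Between replicates, the higher sum was 1.00 to 28.7 times the lower over 18 pairs of libraries in 16 groups, with a median of 1.64. In 7 groups a pair differed by more than 2-fold, and in 3 groups by more than 10-fold: RWPE on ACP with androgen (23.6 and 28.7), MDAPCa2a on plastic in control medium (24.9) and LNCaP on ACP in control medium (11.6). Replication-dependent histone messenger RNAs, which in general end in a stem-loop without a poly(A) tail, gave sums that differed by 1.01 to 1.78 times in the same 18 pairs. The 73 genes summed were taken by symbol, and whether their reads came from forms with a tail was not tested. In pairs of these 3 groups nearly all members moved 1 way: 25 of 25 members with at least 10 reads in at least 1 library of the pair were higher in RWPE androgen replicate 1 than in replicate 2, and 25 of 25 higher than in replicate 3, as were 10 of 10 in LNCaP ACP control replicate 1 and 5 of 6 in MDAPCa2a plastic control replicate 1. Over all genes with as many reads, 50.02% and 50.8% were higher in the RWPE library, 46.5% in the LNCaP library and 48.1% in the MDAPCa2a library, and the median absolute log2 difference over the 18 pairs was 0.11 to 0.42, against 0.19 to 3.93 for the members. Most of the 25 RWPE members held fewer than 10 reads in replicates 2 and 3 and entered through replicate 1. This by itself favours that direction and a large difference. RPPH1, RMRP, SCARNA12, SCARNA2 and TERC, with 10 or more reads in replicate 2 too, were also higher in replicate 1. In LNCaP only RPPH1 and RMRP held 10 or more reads in replicate 2. MALAT1 and NEAT1, long nuclear noncoding RNAs, spread more widely than the histone sums. Whether their reads came from forms with a poly(A) tail was not tested. Replicate 1 over 2 was 1.82 (MALAT1) and 2.04 (NEAT1) in RWPE with androgen. It was 2.12 and 1.34 in LNCaP ACP control, and 0.774 and 1.10 in MDAPCa2a plastic control. The same ratios were 0.284 and 0.393 in RWPE on ACP in control medium, and 3.72 and 3.36 in LNCaP on ACP with androgen.

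The part of a gene's variance in log2 CPM that lay between replicates of a group was 27.1% for the median of the 36 members with enough reads, 22.4% for RPPH1 and 20.7% for RMRP. The median of all 17323 genes was 7.14% (quartiles 3.53% and 13.4%), and the summed histone genes stood at 3.74%. A share at or above that of RPPH1 was found in 1623 of these genes. Most members held few reads, where counting error adds to the share, and genes of like level were not compared. In edgeR, the median biological coefficient of variation of the members tested was 74.9% for RWPE, 50.7% for LNCaP, 42.7% for VCaP and 33.5% for MDAPCa2a, where all genes had medians of 17.1%, 15.6%, 22.6% and 17.1%. A few members moved little between the replicates that differed most: SNORA12, in an intron of CWF19L1, was at 0.501, 0.470 and 0.316 CPM in the 3 RWPE androgen libraries, and SCARNA9, in an intron of CEP295, at 0.751, 0.294 and 0.632 CPM. RNA quality, yield and the efficiency of poly(A) selection were not given in the labels, and their part in the spread was not tested.

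**Figure D3:**
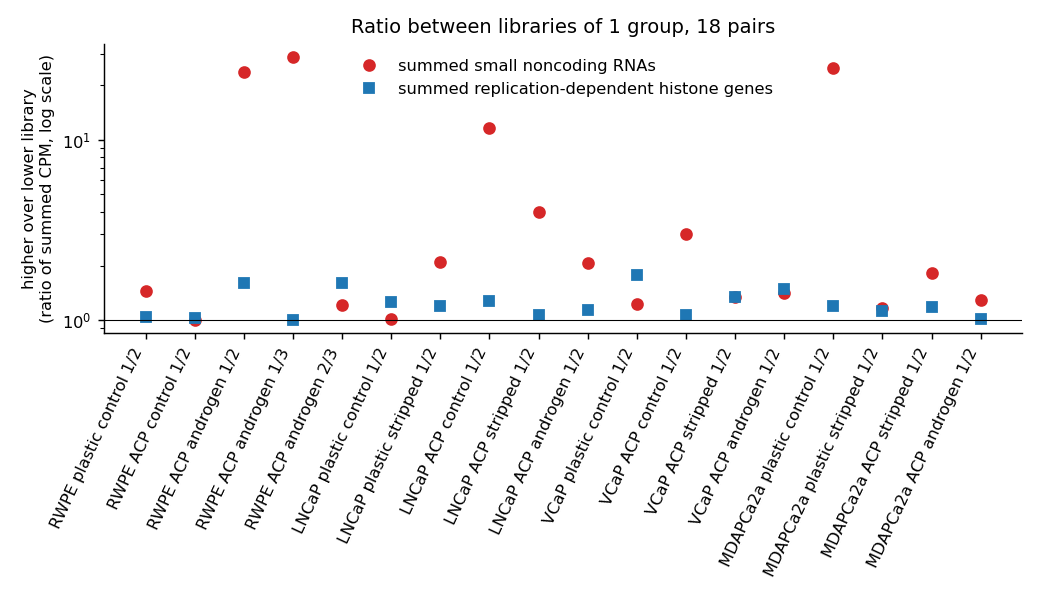
Ratio of the higher to the lower library (log y axis) for the summed small noncoding RNAs (red circles) and the summed histone genes (blue squares) in each of 18 pairs of replicates on the x axis. The red points reach 28.7 and the blue points stay between 1.01 and 1.78.

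RPPH1 and RMRP moved together, and their ratio separated VCaP from RWPE but not the other lines. They went the same way in 15 of 18 replicate pairs, and RPPH1 held more reads than RMRP in 28 of 34 libraries (ratio 0.226 to 3.99, median 1.74). In VCaP the ratio was lowest at 2.06, in an ACP control library, and highest at 3.99, in an ACP androgen library. In RWPE it was lowest at 0.609, on plastic, and highest at 1.70, on ACP with androgen, so that the libraries of these 2 lines did not overlap. LNCaP (0.226 to 3.36) and MDAPCa2a (0.652 to 2.38) overlapped both. The lowest ratio in RWPE rests on 14 RPPH1 and 23 RMRP reads, and the lowest in LNCaP on 14 and 62 reads. Replicates of 1 group also differed, with ratios of 1.70, 0.833 and 0.689 in RWPE on ACP with androgen. These ratios were set side by side after the values were seen and were not tested.

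On ACP against plastic in control medium, the comparison of the mineral surface with ordinary culture, RPPH1 and RMRP were higher on ACP in RWPE, LNCaP and VCaP, the 3 lines that had both groups. In RWPE, RPPH1 was at 0.212 and 0.354 CPM on plastic and at 126 and 109 CPM on ACP, and RMRP was at 0.186 and 0.582 CPM on plastic and at 76.6 and 79.0 CPM on ACP. In LNCaP, RPPH1 was at 0.296 and 0.993 CPM against 114 and 7.01 CPM, and RMRP at 1.31 and 0.772 CPM against 49.1 and 6.50 CPM. In VCaP, RPPH1 was at 1.52 and 1.98 CPM against 32.3 and 90.9 CPM, and RMRP at 0.525 and 0.530 CPM against 11.0 and 44.1 CPM. In each line, each ACP library lay above each plastic library for both RNAs.

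In RWPE, 4 of the 21 members that passed the count filter rose on ACP, against 4.16% of all genes tested (edgeR quasi-likelihood F test, Benjamini-Hochberg adjusted p below 0.05 over all genes). They were RPPH1 (log2 change 8.69 ± 2.12 SE, adjusted p = 0.0483), RMRP (7.66 ± 1.72, adjusted p = 0.0375), SCARNA2 (4.03 ± 0.85, adjusted p = 0.0312) and SNORD97 (adjusted p = 0.0479). SNORD97, a box C/D RNA in EIF4G2, held 62 reads on ACP and 0 on plastic, at least 32.0-fold higher with the floor of 3 reads over the plastic group. The median log2 change was 6.17 for the 21 members and 0.03 for all genes, where a member had to be read in at least 1 group to be tested. Most of the 21 held few reads on plastic and passed the count filter through ACP libraries, which by itself favours a positive median. Over all 45 members, 37 had both ACP libraries above both plastic libraries, as had 21 of the 21 tested, against 33.2% of the genes tested.

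In LNCaP, 5 of 11 members tested rose on ACP, against 12.6% of all genes. RPPH1 rose by 6.67 ± 1.41 (log2, adjusted p = 0.0168) and RMRP by 4.85 ± 0.85 (adjusted p = 0.0106). SCARNA10, in an intron of NCAPD2, rose from 0 to 22 reads (at least 12.3-fold, adjusted p = 0.0136), and SNORA63, in EIF4A2, from 0 to 39 reads (at least 21.8-fold, adjusted p = 0.0439). SNORA73B, in an intron of RCC1, had 1 read on plastic and 28 on ACP, a ratio of 46.9 (exact 95% interval 7.75 to 1916, counting error only; adjusted p = 0.0315). Most of these ACP reads lay in replicate 1, with 17 for SCARNA10, 37 for SNORA63 and 25 for SNORA73B, against 5, 2 and 3 in replicate 2. Both ACP libraries exceeded both plastic libraries for 11 of the 45 members and for 6 of the 11 tested, against 27.5% of the genes tested.

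In VCaP, 2 of 21 members tested rose on ACP, against 0.0448% of all genes, or 7 of 15614. RPPH1 rose by 5.18 ± 0.47 (log2, adjusted p = 0.00489) and RMRP by 5.73 ± 0.67 (adjusted p = 0.0183). The median log2 change of the 21 members was 4.32, against -0.02 for all genes. Many of them held few reads on plastic and passed the count filter through other groups, which favours a positive median here too. Both ACP libraries were above both plastic libraries for 25 of 45 members and for 13 of the 21 tested, against 16.2% of the genes tested. The calls rest on few libraries: without any 1 of the 4 libraries 0 members passed in RWPE, and without VCaP plastic control replicate 1, or in a fit of all 34 libraries, 0 passed in VCaP. In LNCaP the count ran from 0 to 8, with 0 without either plastic library.

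The 8 libraries on plastic in control medium also differed from the others in transcripts of other tissues, which bears on every comparison with these groups. FGG, a liver gene, was at 1.41 to 2.84 CPM in these 8 libraries and at 0 to 0.0323 CPM in the other 26, and APOA1 was at 1.46 to 7.03 against 0 to 0.438 CPM. The surface, any difference in culture history and whatever set these libraries apart cannot be told apart in the comparisons above. Line markers followed the labels: the keratin KRT5 was at 2348 CPM or more in each RWPE library and did not exceed 13.0 CPM in any other line, and ERG was at 126 CPM or more in each VCaP library and did not exceed 2.32 CPM elsewhere.

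**Figure D4:**
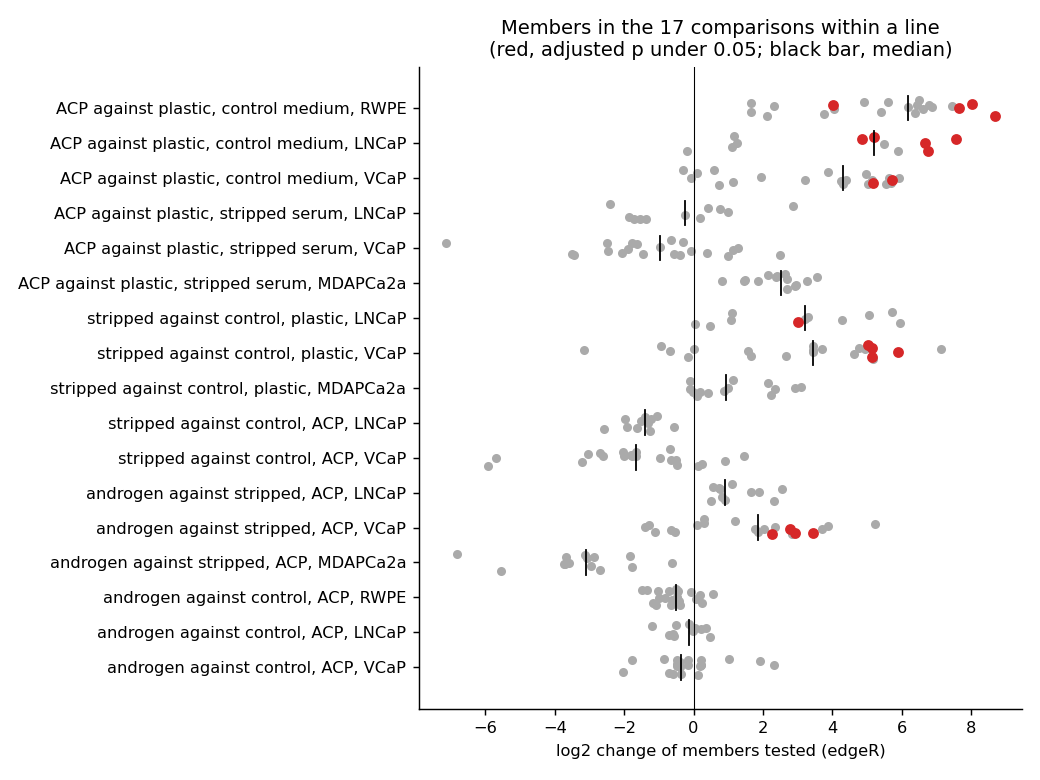
Log2 change (x axis, edgeR) of each member tested in the 17 comparisons within a line (y axis); points are members, red where the adjusted p was below 0.05, and black bars are medians. The medians lie at 6.17, 5.21 and 4.32 for ACP against plastic in control medium, and at 1.84 and -3.11 for androgen in VCaP and MDAPCa2a.

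In stripped serum the surface comparison gave 0 members past the threshold in each of 3 lines, and the values pointed in different directions. In VCaP, RPPH1 was at 55.9 CPM in the single plastic library and at 17.3 and 18.1 CPM on ACP, and RMRP at 18.3 against 4.83 and 8.28 CPM. In MDAPCa2a, RPPH1 was at 16.3 and 17.6 CPM on plastic and at 136 and 69.2 CPM on ACP, and RMRP at 10.6 and 11.5 against 60.3 and 30.0 CPM. For both RNAs all ACP libraries were thus lower than plastic in VCaP and higher than plastic in MDAPCa2a. In LNCaP the groups overlapped, with RPPH1 at 7.26 and 16.9 CPM on plastic and at 27.8 and 3.96 CPM on ACP.

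The share of all genes past the threshold was 6.12% in LNCaP, 0% in VCaP and 0.00734% in MDAPCa2a, and 3 of 11, 6 of 21 and 10 of 14 members tested had an unadjusted p below 0.05. DESeq2 called 0, 0 and 1 member. The log2 change of RPPH1 was -1.64 ± 0.46 in VCaP (adjusted p = 1) and 2.69 ± 1.16 in MDAPCa2a (adjusted p = 0.326), and that of RMRP -1.45 ± 0.62 and 2.13 ± 1.05. Over all 45 members, 29 were lower in both ACP libraries in VCaP (14 of the 21 tested), against 32.4% of genes tested in that direction. In MDAPCa2a 32 were higher in both ACP libraries (13 of the 14 tested), against 15.3%. Several of these 14 held few reads elsewhere and passed the count filter through the ACP libraries in stripped serum. This by itself favours higher values on ACP. The difference of the surface effect in stripped serum between MDAPCa2a and VCaP, tested after these directions were seen, gave 0 members past the threshold against 0% of all genes, with 8 of 36 members at an unadjusted p below 0.05 and 0 by DESeq2. For RPPH1 it was 4.25 ± 2.12 (log2, adjusted p = 0.618).

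Stripped serum against control medium on plastic compared steroid-depleted with full serum. In LNCaP, RMRP rose by 3.02 ± 0.82 (log2, adjusted p = 0.0419), from 1.31 and 0.772 CPM to 5.95 and 10.5 CPM, as 1 of 11 members tested, against 9.45% of all genes. In VCaP 4 of 21 members rose, against 0.89% of all genes: RPPH1 (5.03 ± 0.50, adjusted p = 0.0214), RMRP (5.15 ± 0.70, adjusted p = 0.0357), SNORA63 (3 against 32 reads, adjusted p = 0.0473) and SNORA73B (3 against 54 reads, adjusted p = 0.038). SNORA73B was 65.5 times as high by reads per library size (exact 95% interval 21.3 to 328, counting error only) and SNORA63 38.8 times (12.1 to 198). These calls rest on the single VCaP library in stripped serum, whose spread was taken from the other VCaP groups in the SE and p. In that library 33 of 45 members, and 16 of the 21 tested, lay above both control libraries, against 37.8% of the genes tested.

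In MDAPCa2a 0 of 14 members passed, against 1.58% of all genes, with 3 at an unadjusted p below 0.05 and 0 by DESeq2. RPPH1 was at 32.3 and 0.414 CPM in control medium, which spans the 16.3 and 17.6 CPM in stripped serum. On ACP, stripped serum against control medium gave 0 of 11 members in LNCaP, against 5.37% of all genes (2 at an unadjusted p below 0.05, 0 by DESeq2), and 0 of 21 in VCaP, against 0.82% (8 at an unadjusted p below 0.05, 3 by DESeq2). The LNCaP call of RMRP was lost without any 1 of the 4 libraries, and in VCaP 2 or 3 of the 4 members stayed past the threshold without 1 of the plastic control libraries, RPPH1 and SNORA73B among them each time.

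Whether the surface effect differed between media was tested as an interaction. In VCaP, 3 of 21 members had a lower surface effect in stripped serum than in control medium, against 0.0256% of all genes, or 4 of 15614. The differences were -6.81 ± 0.64 for RPPH1 (log2, adjusted p = 0.0129), -7.19 ± 0.89 for RMRP (adjusted p = 0.0393) and -9.12 ± 1.07 for SNORA73B (adjusted p = 0.0339). The single library on plastic in stripped serum enters each of them, with its spread taken from the other VCaP groups. Without VCaP plastic control replicate 1, or without either ACP stripped library, 0 members passed. In LNCaP 0 of 11 passed, against 0.307% of all genes (6 at an unadjusted p below 0.05, 0 by DESeq2), where RPPH1 had a difference of -6.24 ± 1.73 (adjusted p = 0.234).

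The surface effect in control medium was also compared between lines. No member passed for LNCaP minus RWPE (0 of 36, against 0.156% of all genes), for VCaP minus RWPE (0 of 36, against 0.185%) or for VCaP minus LNCaP (0 of 36, against 0.0231%). In these comparisons 4, 3 and 0 members had an unadjusted p below 0.05 in edgeR, and DESeq2 called 0 in each. The difference for RPPH1 was -2.12 ± 2.62, -3.54 ± 2.46 and -1.42 ± 2.22 (log2 ± SE), so that differences of several log2 units in either direction lay within these errors.

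With androgen added to stripped serum on ACP, 4 members rose in VCaP, a share near that of all genes, and in MDAPCa2a most members had lower values with no call. In VCaP, RPPH1 was at 17.3 and 18.1 CPM in stripped serum and at 142 and 103 CPM with androgen, and SNORA73B at 0.195 and 0.246 CPM against 2.86 and 2.06 CPM. SCARNA10 was at 0.146 and 0.164 CPM against 1.30 and 1.14 CPM, and RMRP at 4.83 and 8.28 against 37.1 and 25.8 CPM. For all 4 RNAs the 2 androgen libraries lay above the 2 stripped libraries. In MDAPCa2a, RPPH1 was at 136 and 69.2 CPM in stripped serum and at 10.1 and 14.0 CPM with androgen, RMRP at 60.3 and 30.0 against 5.16 and 5.91 CPM, and SNORA73B at 4.96 and 2.32 against 0.458 and 0.505 CPM.

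In VCaP 4 of 21 members tested rose, against 17.5% of all genes: SNORA73B (3.44 ± 0.67, adjusted p = 0.00915), SCARNA10 (2.93 ± 0.89, adjusted p = 0.0481), RPPH1 (2.79 ± 0.41, adjusted p = 0.00321) and RMRP (2.26 ± 0.55, adjusted p = 0.0213). The share of members called was close to that of all genes. Of 45 members, 23 were higher in both androgen libraries (12 of the 21 tested), against 29.9% of the genes tested. Another 4 (TERC, SCARNA9, SCARNA17 and SNORA4) were lower in both (3 of the 21 tested), against 31.5%. SCARNA16 had a log2 change of -1.27 ± 0.94 and SCARNA12 of -0.64 ± 0.64, neither past the threshold. In MDAPCa2a 0 of 14 members and 0% of all genes passed the threshold, with 12 of 14 members at an unadjusted p below 0.05 and 0 by DESeq2. RPPH1 had a log2 change of -3.14 ± 1.20 (adjusted p = 0.968) and RMRP of -3.08 ± 1.11 (adjusted p = 0.968). Both androgen libraries were lower for 36 of 45 members and for 13 of the 14 tested, against 9.82% of the genes tested. Several of the 14 held few reads outside ACP in stripped serum and passed the count filter through that group. SNORA57, for example, held 9 and 9 reads there and at most 3 in any other MDAPCa2a library. This by itself favours lower values with androgen.

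The difference of the androgen effect between VCaP and MDAPCa2a, tested after these directions were seen, passed for 2 of 36 members, against 7.86% of all genes. It was 8.45 ± 2.15 for SCARNA10 (log2, adjusted p = 0.0169), where MDAPCa2a held 46 reads in stripped serum and 1 with androgen, and 6.34 ± 1.70 for SNORA73B (adjusted p = 0.0222). RPPH1 differed by 5.87 ± 2.05 (adjusted p = 0.08) and RMRP by 5.28 ± 1.74 (adjusted p = 0.062). In LNCaP androgen against stripped serum gave 0 of 11 members, against 7.73% of all genes (1 at an unadjusted p below 0.05, 0 by DESeq2), with RPPH1 at 27.8 and 3.96 CPM against 114 and 44.6 CPM. The ACP stripped libraries of VCaP and MDAPCa2a enter both the androgen and the surface comparison, so the opposite directions in both rest on shared libraries. Without VCaP ACP stripped replicate 1 only RPPH1 passed for androgen in VCaP, without either androgen library 2 members did, and in a fit of all 34 libraries only SNORA73B did. For the difference between the lines, 0 members passed without VCaP ACP stripped replicate 1, MDAPCa2a ACP stripped replicate 1 or either MDAPCa2a androgen library, and 1 passed without VCaP ACP stripped replicate 2.

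On ACP with androgen against control medium, 0 members passed in RWPE (21 tested, against 19.1% of all genes; the serum may differ between these groups too), in LNCaP (11 tested, against 15.1%) and in VCaP (21 tested, against 5.99%). At an unadjusted p below 0.05 there were 0, 0 and 2 members, and DESeq2 called 0 in each line. In RWPE a single library decided this result. RPPH1 was at 126 and 109 CPM in control medium and at 206, 3.82 and 2.80 CPM with androgen, and RMRP at 76.6 and 79.0 CPM against 121, 4.58 and 4.06 CPM. The log2 change of RPPH1 was -0.71 ± 1.24 with all 5 libraries and -5.14 without androgen replicate 1 (adjusted p = 2.2e-05), and that of RMRP was -0.83 ± 1.06 and -4.16 (adjusted p = 0.000431). Without that library 9 members passed. SCARNA12, which guides modification of spliceosomal RNA, spread less: 2.01 and 1.90 CPM in control medium and 4.57, 2.76 and 1.31 CPM with androgen.

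**Figure D5:**
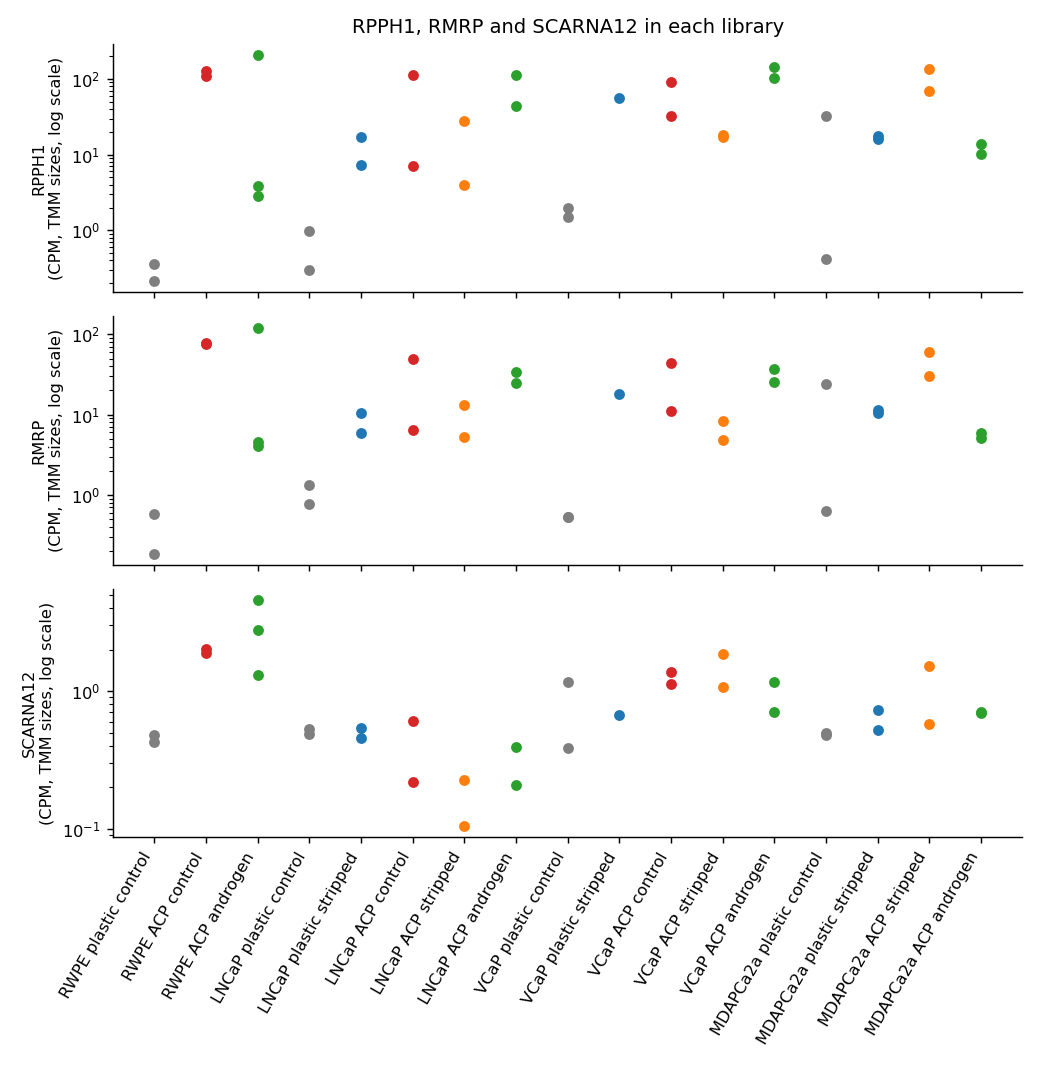
CPM on TMM-scaled library sizes (log y axes) of RPPH1, RMRP and SCARNA12 in each of the 34 libraries, by group on the x axis; points are libraries, coloured by surface and medium. RPPH1 spans 0.212 to 206 CPM and RMRP 0.186 to 121 CPM, while SCARNA12 spans 0.105 to 4.57 CPM.

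Between lines, most genes differed and few members passed the threshold. On plastic in control medium 0 of 36 members passed for LNCaP against RWPE, against 57.4% of all genes (1 at an unadjusted p below 0.05, 0 by DESeq2). Of the 45 members, 25 held 0 reads in both LNCaP libraries and 24 in both RWPE libraries, so that many could hardly be called. The low count of calls on plastic therefore does not show like levels between these lines. For VCaP against RWPE 2 of 36 rose, against 62.4% of all genes. SCARNA16, in SNHG20, held 20 and 20 reads in VCaP and 0 and 0 in RWPE (at least 13.6-fold, adjusted p = 0.00558), and TERC was at 0.904 and 0.867 CPM in VCaP against 0.159 and 0.253 CPM in RWPE (log2 2.08 ± 0.74, adjusted p = 0.0183). For MDAPCa2a against RWPE 2 of 36 rose, against 56.7% of all genes: RPPH1 (5.82 ± 1.93, adjusted p = 0.0126) and RMRP (4.96 ± 1.52, adjusted p = 0.00725). RPPH1 was at 32.3 CPM in MDAPCa2a replicate 1 and at 0.414 CPM in replicate 2, against 0.212 and 0.354 CPM in RWPE, and without replicate 1 the log2 changes were 0.53 and 0.71 and neither passed.

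SCARNA16 had its highest group mean in VCaP on each surface and medium, although with androgen the VCaP libraries overlapped with those of RWPE and MDAPCa2a. It was at 0.583 and 0.482 CPM on plastic in control medium, 1.63 on plastic in stripped serum, 0.282 and 1.25 on ACP in control medium, 1.32 and 2.87 on ACP in stripped serum, and 1.60 and 0.131 with androgen. In LNCaP it did not exceed 0.097 CPM, and in RWPE 1 library of 7, androgen replicate 1, reached 1.19 CPM while the others lay at 0.136 CPM or less. Its host transcript SNHG20 was also higher in VCaP than in RWPE on plastic (log2 2.34 ± 0.34), as it was in LNCaP (2.18 ± 0.34), where SCARNA16 had 0 reads in both libraries. SCARNA17, in SNHG22, was at 0.384 to 1.05 CPM in the 9 VCaP libraries and at 0 to 0.438 CPM in the other 25.

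On ACP with androgen, LNCaP had 8 of 36 members lower than RWPE, against 66.9% of all genes, VCaP had 4 lower and 1 higher, against 67.4%, and MDAPCa2a had 7 lower, against 64%. SCARNA12, in PHB2, was lower in all 3 lines, at 0.207 and 0.392 CPM in LNCaP (log2 -3.23 ± 0.61, adjusted p = 5.3e-05), 1.17 and 0.701 CPM in VCaP (-1.61 ± 0.54, adjusted p = 0.0117) and 0.688 and 0.707 CPM in MDAPCa2a (-2.03 ± 0.57, adjusted p = 0.00336), against 4.57, 2.76 and 1.31 CPM in RWPE. SNORA12 held 8, 8 and 7 reads in RWPE and 0 in all 6 libraries of the other lines, which puts LNCaP at least 8.28-fold lower (adjusted p = 0.0024), VCaP at least 6.38-fold lower (adjusted p = 0.00412) and MDAPCa2a at least 5.18-fold lower (adjusted p = 0.00675). Their libraries did not overlap with those of RWPE. SCARNA9, at 0.0346 and 0.0326 CPM in LNCaP, was lower by 3.89 ± 1.07 (log2, adjusted p = 0.00254).

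The other calls in this comparison held fewer reads or rested on RWPE androgen replicate 1. LNCaP also had lower SCARNA16, SCARNA7, SNORA4, SNORA71D and TERC (adjusted p = 0.009 to 0.0479), VCaP lower SNORA4 and SNORA52 and higher SNORA80B (0.018 to 0.0377), and MDAPCa2a lower SCARNA10, SCARNA7, SNORA52, SNORD17 and RMRP (0.00484 to 0.044). RMRP was at 5.16 and 5.91 CPM in MDAPCa2a and at 121, 4.58 and 4.06 CPM in RWPE, so that the groups overlapped. Without RWPE androgen replicate 1 its log2 change turned from -2.96 to 0.45, and the counts became 5 in LNCaP, 10 in VCaP and 2 in MDAPCa2a. Without either androgen library of the other line they became 4 in LNCaP, 2 in VCaP and 3 in MDAPCa2a. RPPH1, without RWPE androgen replicate 1, rose in VCaP by 5.29 (adjusted p = 0.000851).

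By group mean, the highest level lay in MDAPCa2a on ACP in stripped serum for 16 members, in RWPE on ACP in control medium for 12 and with androgen for 6. On plastic in control medium 25 members had 0 reads in both LNCaP libraries and 24 in both RWPE libraries, against 10 each in VCaP and MDAPCa2a. TERC was highest in the same group as those 16 members, with 2.35 and 1.34 CPM in MDAPCa2a on ACP in stripped serum against 0.0451 to 1.25 CPM in all other libraries.

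Most members lie inside genes that are themselves polyadenylated, so host reads could be compared in the same libraries. Of 44 members placed in GENCODE, 39 lie within 31 genes on the same strand that have a row of the same name in the count table, called hosts here, 20 of them in an intron and 19 overlapping an exon of at least 1 transcript. RPPH1, SCARNA2 and SNORA57 overlap exons of genes with no row of that name, and RMRP and TERC lie in no other gene. EIF4A1, the host of SNORA48, SNORA67 and SNORD10, is listed at 0 in every library, so these 3 have no host value. The strand setting of the counting was not given in the sources used here, so reads of an exonic member and its host cannot be told apart in full. On ACP against plastic in control medium the median log2 change was 6.27 for 16 members and 0.09 for their 15 hosts in RWPE, 5.21 and 0.12 in LNCaP (5 members, 5 hosts), and 4.32 and -0.04 in VCaP (13 members, 13 hosts). In these 3 comparisons 0 hosts passed the threshold. Many of these members held few reads on plastic and passed the count filter through other groups, which favours a rise in their medians. The gap to the hosts' medians is thus in part set by this filter.

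Between the RWPE androgen libraries 1 and 2, hosted members had a median log2 difference of 3.65 and their hosts of 0.04, with 11 of 17 hosts higher in library 1. For androgen in VCaP the medians were 2.03 and -0.11, where NCAPD2, the host of SCARNA10, rose by 1.28 ± 0.22 (log2, adjusted p = 0.00593), and in MDAPCa2a they were -2.95 and -0.21. Several of these MDAPCa2a members passed the count filter through ACP in stripped serum, which favours a negative median. In the line comparisons with androgen, all 6 called members with a tested host in MDAPCa2a had a host called the same way, as had 4 of 5 in VCaP and 3 of 7 in LNCaP. Of all 23 hosts tested, 16, 14 and 15 were called lower and 2, 3 and 2 higher in the same comparisons, so that like calls were frequent among hosts in general. SNORA80B and its host ODC1, which makes polyamines, were both higher in VCaP (log2 3.09 ± 1.27 and 3.18 ± 0.20), and CWF19L1, the host of SNORA12, was lower in LNCaP, VCaP and MDAPCa2a (log2 -2.99, -2.35 and -3.31).

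RPPH1 and RMRP each start close to a gene on the opposite strand, PARP2 at a distance of 175 bases and CCDC107 at 272 bases. PARP2, a DNA repair enzyme, had a log2 change of 0.02 ± 0.17 in RWPE, 0.40 ± 0.17 in LNCaP and 0.09 ± 0.23 in VCaP on ACP against plastic in control medium, and CCDC107 of -0.02 ± 0.26, 0.39 ± 0.18 and 0.05 ± 0.33; none of these passed the threshold. Between RWPE androgen libraries 1 and 2 they differed by 0.06 and -0.15 (log2), where RPPH1 differed by 5.73 and RMRP by 4.71. The large differences of both RNAs thus appeared without like values in these neighbours.

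The proteins that bind these RNAs were read as lists of their own. Of 11 RNase P and MRP proteins tested, 0 passed in RWPE and VCaP and 1 rose in LNCaP on ACP against plastic in control medium (median log2 0.17, 0.13 and 0.28), and 1, POP7, rose with androgen in VCaP (0.92 ± 0.20, adjusted p = 0.0127). Over all genes 4.16% passed in RWPE, 0.0448% in VCaP and 12.6% in LNCaP, and 17.5% with androgen in VCaP. Of 8 box H/ACA and telomerase proteins, 0, 0 and 2 rose in the same surface comparisons, and of 11 box C/D proteins 0, 0 and 2. Histone genes gave 3 of 44 higher in RWPE (median log2 1.09), 3 higher and 1 lower of 35 in LNCaP (0.01) and 0 of 44 in VCaP (0.91). With androgen in VCaP 18 of 44 histone genes rose (median 1.96), and with androgen in MDAPCa2a 0 of 20 passed (median -0.34). The part of cell division and of poly(A) selection in these changes was not tested.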

How the data were processed

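The deposited values are whole-number read counts per gene from poly(A)-selected RNA, made by the authors before deposit; the submitters' processing notes name STAR, HTSeq and hg19, and neither versions nor a strand setting is given in the sources used here. Total counts ran from 15440141 to 44779246 per library. The 34 libraries were grouped by line, surface and medium as labelled (17 groups).

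The test was the quasi-likelihood F test of edgeR 4.0.16 in R 4.3.3, on TMM sizes and after filterByExpr with a minimum count of 10, with Benjamini-Hochberg adjustment over all genes tested and a threshold of 0.05. Comparisons within a line used that line's groups, and those between lines all 34 libraries, with no block. SE is the log2 change over the square root of F. CPM use TMM sizes over all lines, and sums use total counts. Lengths, hosts and sequences came from GENCODE v29, matched by symbol. A floor of 3 counts over a group and exact 95% intervals cover counting error only.

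The members and lists were chosen with earlier results of these data known. Named are RPPH1, RMRP, TERC, SCARNA2, the 6 SNORA, up to 6 SNORD and 4 SCARNA members with the highest mean CPM, and per comparison the 2 largest rises and falls among calls whose higher group averaged 1 CPM or more without overlap; counts of 5 or fewer are named out, and any further gene was chosen with its values in view. Alternatives were DESeq2 1.42.0, RLE size factors, no count filter, a replicate block, a fit of all libraries, other read limits and leaving out each library. The androgen effect between VCaP and MDAPCa2a, and their surface effect in stripped serum, were chosen after seeing the data. The steps were tested on simulated counts. Promoters of the members were not used here, and 1 SNORD member is not reported by name here.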

Additional observations from a re-analysis of the deposited data

Results flagged for a closer look

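In VCaP the effect of ACP against plastic differed between stripped serum and control medium for 3 RNAs, by the test of the difference itself in edgeR: by -6.81 for RPPH1 (log2, stripped minus control medium, adjusted p = 0.0129), by -7.19 for RMRP (adjusted p = 0.0393) and by -9.12 for SNORA73B (adjusted p = 0.0339). RPPH1 was at 1.52 and 1.98 CPM on plastic and at 32.3 and 90.9 CPM on ACP in control medium, and at 55.9 CPM on plastic and 17.3 and 18.1 CPM on ACP in stripped serum. The difference rests on the 1 library on plastic in stripped serum, whose spread was taken from the other VCaP groups, and no member passed in a fit of all 34 libraries.

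The effect of androgen on ACP differed between VCaP and MDAPCa2a by 8.45 for SCARNA10 (log2, VCaP minus MDAPCa2a, adjusted p = 0.0169) and by 6.34 for SNORA73B (adjusted p = 0.0222). These were 2 of 36 members, against 7.86% of all genes, and 0 members passed without VCaP ACP stripped replicate 1, MDAPCa2a ACP stripped replicate 1 or either MDAPCa2a androgen library. This comparison was chosen after seeing the opposite directions in both lines. SCARNA10 held 7 reads in VCaP in stripped serum and 56 with androgen, and 46 and 1 reads in MDAPCa2a.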

How the results depend on the processing

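Counts of members past the threshold moved with the processing. With DESeq2 the counts were 7 (edgeR 4) for ACP against plastic in control medium in RWPE, 2 (5) in LNCaP and 4 (2) in VCaP, 1 (0) for the surface in stripped serum in MDAPCa2a, 2 (1) for stripped serum on plastic in LNCaP and 3 (0) on ACP in VCaP, and 5 (3) for the VCaP interaction of surface and medium. For lines against RWPE it gave 0 (2) in MDAPCa2a on plastic, and 5 (8), 2 (5) and 4 (7) in LNCaP, VCaP and MDAPCa2a on ACP with androgen. RLE size factors gave 2 for the surface in RWPE. Without the count filter the counts were 16, 8 and 5 for the surface in control medium in RWPE, LNCaP and VCaP, 5 for the surface in stripped serum in MDAPCa2a, 5 and 7 for stripped serum on plastic in LNCaP and VCaP, 2 and 3 on ACP in the same lines, 3 and 4 for androgen against stripped serum in LNCaP and MDAPCa2a, 1 for androgen against control medium in VCaP, 4 and 5 for the interaction of surface and medium in LNCaP and VCaP, and 7 for the androgen effect between VCaP and MDAPCa2a. A fit of all 34 libraries gave 9, 2 and 0 for the surface in control medium in RWPE, LNCaP and VCaP, 0 for stripped serum on plastic in LNCaP, 1 for androgen in VCaP and 0 for the VCaP interaction. The cause of these shifts was not tested.

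Leaving out each library in turn gave 0 to 0 members for the surface in control medium in RWPE, 0 to 8 in LNCaP and 0 to 2 in VCaP, 0 to 2 for the surface in stripped serum in MDAPCa2a, 0 to 0 and 2 to 3 for stripped serum on plastic in LNCaP and VCaP, 0 to 1 on ACP in LNCaP, 1 to 3 for androgen against stripped serum in VCaP, and 0 to 9, 0 to 1 and 0 to 1 for androgen against control medium in RWPE, LNCaP and VCaP. For lines against RWPE it gave 0 to 1, 1 to 3 and 0 to 4 on plastic and 4 to 12, 2 to 10 and 2 to 9 on ACP with androgen in LNCaP, VCaP and MDAPCa2a. It gave 0 to 2 and 0 to 3 for the interaction in LNCaP and VCaP and 0 to 2 for the androgen effect between VCaP and MDAPCa2a. Where a group was left with 1 library, that library was assumed to vary like the other groups. Of 49 named calls, 10 passed without every library in turn and 39 were lost without at least 1.

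Followed through the alternatives were 93 log2 changes: the named calls, and RPPH1 and RMRP in every comparison, called or not. Over all alternatives, 651 values of these changes kept their direction and side of the threshold, 147 lost the call, 31 gained one and 28 turned in sign. All that turned were changes of RPPH1 or RMRP, and of these only that of RMRP in MDAPCa2a against RWPE had passed the threshold. Uncalled changes of other members were not followed, so whether their directions held was not tested. Leaving out 1 library took RMRP from -0.60 to 0.71 and RPPH1 from -1.57 to 1.22 for ACP against plastic in stripped serum in LNCaP, from -2.46 to 0.49 and from -3.96 to 1.17 for stripped serum on ACP in LNCaP, from -0.79 to 2.17 and from -0.56 to 3.49 for androgen against control medium in LNCaP, from -1.09 to 4.13 and from -0.91 to 5.36 for stripped serum on plastic in MDAPCa2a, and from -0.36 to 3.06 and from -2.52 to 1.69 for the surface effect in VCaP minus LNCaP. RMRP ran from -0.45 to 1.52 for androgen against control medium in VCaP and from -0.18 to 1.48 for VCaP against RWPE on plastic. Against RWPE on ACP with androgen, RMRP ran from -0.98 to 2.85 in LNCaP, from -0.90 to 2.93 in VCaP and from -3.38 to 0.45 in MDAPCa2a, and RPPH1 from -0.66 to 4.68 in LNCaP and from -2.99 to 1.97 in MDAPCa2a. The replicate block turned 4 changes, none of them a call: RMRP (-0.070) and RPPH1 (-0.30) for the surface in stripped serum in LNCaP, RMRP (0.51) for stripped serum on plastic in MDAPCa2a, and RPPH1 (-0.14) for LNCaP against RWPE with androgen. The cause was not tested.

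With a replicate block the count was 18 (4) for the surface in control medium in RWPE, 2 (1) and 1 (4) for stripped serum on plastic in LNCaP and VCaP and 4 (2) for VCaP against RWPE on plastic, and 5 named calls were lost. The numbers share no stated pairing, and 6 of 25 pairs of groups had a correlation of same-numbered deviations over 0.1 (range -0.248 to 0.252).

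The summed members' mean was 219.5 CPM with RLE and 219.8 CPM with TMM sizes in RWPE on ACP in control medium, 3.49 and 3.67 CPM in LNCaP on plastic in control medium, and 91.0 CPM with TMM sizes in VCaP on plastic in stripped serum. A limit of 340 reads would leave 8 members. Depth limits most of them: the median member held 88 reads in 34 libraries.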

Other observations

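Few genes outside the set shared the members' pattern between replicates. Of 17287 genes, 21 had a correlation over 0.7 between their deviations from group means and those of the members' sum (34 libraries, a description with no test), as had 20 of 36 members. Each member's own reads are part of that sum, which favours the members, so these counts are not like for like. Highest outside the set were HMX3, RBMXL2, EGR3 and MIR6087. RBMXL2, a gene known for its role in male germ cells, was at 13.9, 1.06 and 0.993 CPM in the 3 RWPE androgen libraries, at 9.98 and 2.56 CPM in LNCaP on ACP in control medium, and at 3.93 and 0.331 CPM in MDAPCa2a on plastic in control medium. The MIR6087 row was at 4.63, 0.0587 and 0.180 CPM, 3.61 and 0.694 CPM, and 4.55 and 0.276 CPM in the same libraries, so that replicate 1 was highest each time, as for the members. These genes were picked after their values were seen.

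Other small RNAs outside the naming rule were nearly unread. The 41 rows of spliceosomal (RNU, RNVU), Y (RNY) and vault (VTRNA) RNAs held 231 reads over all 34 libraries, and 3 of them reached 34 reads.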
